A study of Homo sapiens with 2 samples.

Results

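Splicing factor genes were compared between A549 cells kept in static culture for 4 h and A549 cells stretched for 4 h. The genes were chosen by symbol: the serine/arginine-rich splicing factors (SRSF), the heterogeneous nuclear ribonucleoproteins (HNRNP), the pre-mRNA processing factors (PRPF), proteins of the small nuclear ribonucleoproteins (SNRP), the SF3A and SF3B subunits, the RNA-binding motif genes (RBM) and the LSM genes. Of 14884 genes named on the array, 98 symbols matched, and 5 pseudogene symbols were left out, which left 93 genes. They comprise 10 SRSF, 21 HNRNP, 10 PRPF, 11 SNRP, 40 RBM and 1 LSM gene. The RBM genes include 4 antisense RNAs that carry an RBM gene's name (RBM12B-AS1, RBM15-AS1, RBM26-AS1 and RBM5-AS1). Of 123 protein-coding symbols that the same patterns take from the RefSeq gene table, 89 had a named probe set. All 9 SF3 genes, SF3B1 among them, and 12 of 13 LSM genes are unnamed here, so the U2 snRNP core factor SF3 and the LSM ring of U6 are not described. Symbols define the group, and some RBM genes work outside splicing.

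A549 is an established epithelial line from a human lung adenocarcinoma. Total RNA of each culture was labelled with biotin and hybridised to 1 Affymetrix expression array per condition, so the series holds 2 arrays and no value has a replicate. A549 is the name in both source names, although digits are swapped in the stretched sample's title. Neither the device, amplitude and frequency of the stretch nor the number of cultures behind each RNA is given in the sources used here. In RNA from whole cultures, less RNA per cell and fewer cells that hold it cannot be told apart.

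Splicing removes introns from pre-mRNA and joins the exons. The spliceosome that does this is assembled from small nuclear ribonucleoproteins (snRNPs), each a small nuclear RNA in a ring of Sm or LSM proteins with further specific proteins. SR proteins bind exonic enhancers and recruit snRNPs to nearby splice sites, and hnRNP proteins coat nascent RNA and often oppose them, so that the balance of both sets which exons are kept. Many SR and hnRNP genes limit their own mRNA by splicing in an exon that marks it for decay.

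Signals are given as log2 values of the robust multi-array average (RMA), and differences are stretch minus static on the same log2 scale, where 1 is 2-fold and 0.585 is 1.5-fold. Values of different genes come from different probes and are not compared as levels. Static signals lay between 0.61 and 12.7 and stretched signals between 0.60 and 12.6. The 95th percentile of 23 measured genes of unrelated tissues, 4.01, served as a bound for background. Of these 23 genes, 4 differed by at least 1.5-fold and 0 by 2-fold. The keratin genes KRT18 (10.29 and 11.00), KRT8 (4.60 and 5.47) and KRT7 (5.41 and 7.56) and the epithelial adhesion gene EPCAM (5.30 and 4.71) were above that bound on both arrays. The alveolar genes SFTPC, SFTPB, NKX2-1 and NAPSA and the keratin gene KRT19 were not. Of 5 measured markers of leukocytes, endothelium and fibroblasts, PECAM1, VWF, DCN and LUM lay within background on both arrays, and CD68, a lysosomal protein used as a macrophage marker, went from 7.51 to 8.58. The part of other cells in the results was not tested.

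With stretch, more splicing factor genes had a higher signal than a lower one. At a threshold of 1.5-fold, 34 of the 93 genes were higher and 3 were lower, against 20.7% and 8.02% of all named genes. At 2-fold, 16 were higher and 1 was lower, against 9.07% and 1.93%. The median difference of the 93 genes was 0.42, against 0.06 for all named genes. Of the 34 higher genes, 29 had a static signal above the background bound. SNRPF, RBM19, RBM12B, RBM15 and RBM48 did not, and low signals are compressed on such arrays.

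Part of this lean was shared by other genes of like signal. The splicing factor genes have high signals, with 54 of them in the upper 2 of 10 equal bins of mean signal, and all named genes lean upward there as well. In the ninth bin (mean signal 5.75 to 6.76) the median difference was 0.45 over all named genes and 0.51 over the 18 splicing factor genes, of which 8 were at least 1.5-fold higher, against 41.3% of all genes in that bin. In the tenth (6.77 to 11.8) it was 0.29 over all genes and 0.45 over 36 splicing factor genes, of which 14 were at least 1.5-fold higher, against 27.5%. Over the 6502 named genes with a mean signal past the background bound, 36.8% were higher and 4.89% lower at 1.5-fold, and 16.8% and 1.91% at 2-fold, with a median difference of 0.38. The 75 splicing factor genes past that bound held 33 that were at least 1.5-fold higher and 1 that was lower, with a median of 0.49. Because the mean of both arrays was used, a gene can pass through its stretched signal alone. Of the 75 genes, 6 had a static signal within background and 0 a stretched one. Of the 6502, these were 505 and 137, so the filter itself favours higher genes in both shares. With the level trend removed by loess, 20 of the 93 genes were at least 1.5-fold higher and 4 lower, against 14.3% and 9.43% of all named genes. The median was then 0.17, against 0.04. With 1 array per condition no test of this difference exists.

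**Figure D1:**
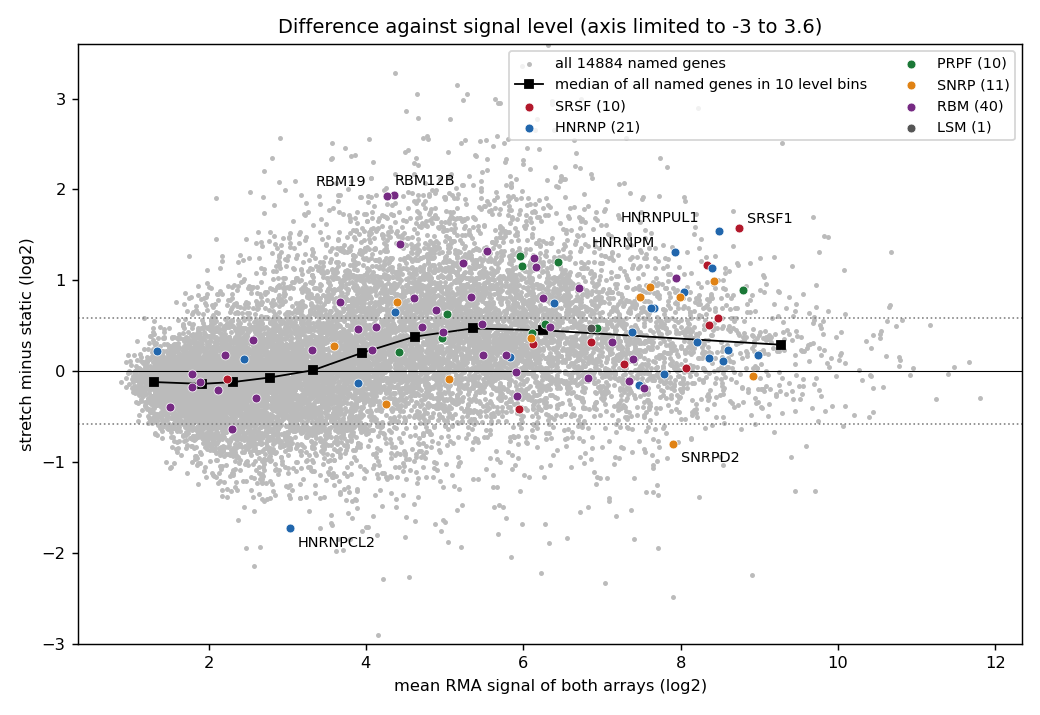
Difference between the arrays (stretch minus static, log2) against the mean RMA signal of both arrays (log2), with all 14884 named genes in grey, the splicing factor genes coloured by family and black squares for the median of all named genes in 10 level bins. Dotted lines mark 1.5-fold; the upward lean at higher signals is common to the grey and the coloured points, and the median of all genes is 0.45 in the ninth bin.

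The direction of the smaller differences depended on how the arrays were scaled. Centring on 8 reference genes, whose own differences ran from -0.22 (B2M) to 1.72 (PPIA), lowers every difference by 0.54. Of the 93 genes, 58 then had a difference below 0, against 22 as deposited. Their median was then -0.12, beside -0.48 for all named genes and -0.16 for named genes past the background bound. Centring on the array medians raises every difference by 0.10. Since 1.5-fold is 0.585, neither centring could bring the 34 higher genes below 0. They also stayed above 0 under quantile normalization and under loess. With every scaling and with probe sets averaged, 15 of them stayed at least 1.5-fold higher. These are the 15 with the largest differences as deposited, from 1.14 (HNRNPAB) upward. Passing thus amounts to a stricter threshold on the same arrays, and the share of all named genes that pass was not counted. These 15 were SRSF1 and SRSF2, HNRNPUL1, HNRNPM and HNRNPAB, PRPF4, PRPF31 and PRPF19, and RBM19, RBM12B, RBM15, RBM28, RBM23, RBM10 and RBM22. No SNRP gene was among them.

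**Figure D2:**
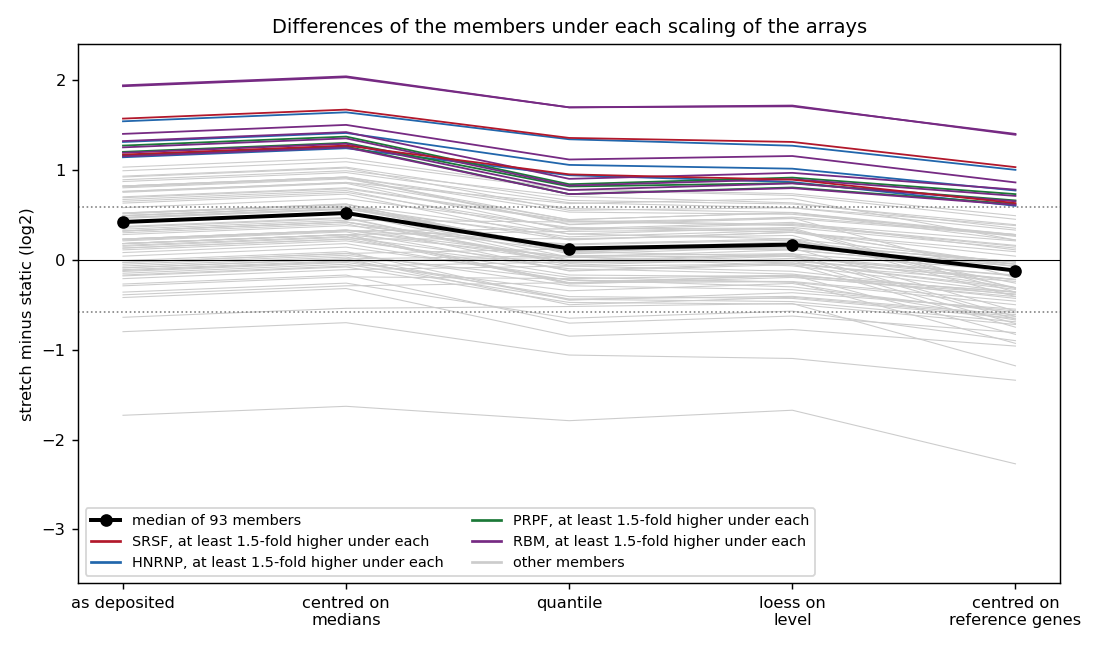
Difference between the arrays (stretch minus static, log2) of each of the 93 genes as deposited and under 4 other scalings, with the 15 genes that stayed at least 1.5-fold higher coloured by family and the median of all 93 in black. The median falls from 0.42 as deposited to -0.12 after centring on reference genes, where that of all named genes is -0.48. The coloured lines stay above the dotted 1.5-fold line, for which they were chosen.

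SR proteins differed among themselves. SRSF1, the founding SR protein and a known proto-oncogene that promotes exon inclusion, had a static signal of 7.96 and a stretched signal of 9.53, a difference of 1.57 (2.97-fold). SRSF2, which is known for regulating exon recognition and transcription elongation, went from 7.75 to 8.92, a difference of 1.17 (2.25-fold). As deposited, these were the 2 of 10 SRSF genes past 1.5-fold, a share of 20% beside the 20.7% higher among all named genes. Among named genes past the background bound, where 9 of the 10 lie, 36.8% were higher. SRSF3, the smallest SR protein and an adaptor for mRNA export, came close with 8.19 and 8.77 (0.58). SRSF6 read 8.11 and 8.62 (0.51), SRSF11 6.70 and 7.02 (0.32) and SRSF4 5.97 and 6.27 (0.30). SRSF5 (7.24 and 7.32) and SRSF7 (8.05 and 8.09), an SR protein with a zinc knuckle, were nearly level. SRSF8, a copy of SRSF2 that lacks introns, had the opposite sign to SRSF2, with 6.16 and 5.74 (-0.42), and was past 1.5-fold lower after quantile normalization (-0.85), loess (-0.78) and centring on reference genes (-0.96). Because the genes resemble each other, the split of signal between them is uncertain. SRSF12 lay within background on both arrays, at 2.28 and 2.19. The median of the 10 genes was 0.31 as deposited, but -0.23 after centring on reference genes, and above 0 under the other scalings. After quantile normalization it was 0.01.

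Among hnRNP genes, 8 of 21 (38.1%) were at least 1.5-fold higher, 1 was lower and 12 lay between. The share higher was 20.7% among all named genes and 36.8% among those past the background bound. Of the 21 genes 17 lie past that bound, all 8 higher ones among them, so the 38.1% and the 36.8% cover unlike sets. HNRNPUL1, a relative of the nuclear scaffold protein hnRNP U with roles in RNA processing and DNA repair, went from 7.72 to 9.26 (1.54, or 2.91-fold). HNRNPM, which is known to favour mesenchymal exon choices, went from 7.27 to 8.58 (1.31), and HNRNPAB, an A/B-type protein, from 7.83 to 8.97 (1.14). These 3 were the hnRNP genes past 2-fold upward. HNRNPF, which binds G-rich runs, went from 7.61 to 8.48 (0.87) and HNRNPR from 7.28 to 7.97 (0.69). HNRNPLL, known for its part in switching CD45 exons in T cells, read 4.04 and 4.69 (0.65), with the static value next to the background bound.

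Some close relatives within the hnRNP family had like differences and some did not. In the A/B group, HNRNPA1, which binds exonic silencers, went from 7.31 to 8.01 (0.70) and HNRNPA0 from 6.01 to 6.76 (0.75). HNRNPA2B1 read 8.49 and 8.72 (0.23), and HNRNPA3 lay within background at 3.96 and 3.83 (-0.13). The 5 genes of that group, HNRNPAB included, thus ran from -0.13 to 1.14. In the U group, HNRNPU itself read 8.49 and 8.60 (0.11) and HNRNPUL2 5.75 and 5.91 (0.16), beside the 1.54 of HNRNPUL1. In the F/H group HNRNPH1 (7.17 and 7.60) and HNRNPH3 (8.05 and 8.37) stood at 0.43 and 0.32. HNRNPK, which binds C-rich RNA, read 8.90 and 9.08, HNRNPL, which binds CA repeats, 8.28 and 8.43, HNRNPC, which binds uridine tracts, 7.55 and 7.40, and HNRNPDL 7.80 and 7.77. All of these 4 lay between -0.15 and 0.18. The lower hnRNP gene was HNRNPCL2, one of the copies of HNRNPC, which went from 3.90 to 2.17 (-1.73), within background on both arrays. HNRNPCL1 (1.24 and 1.46) and HNRNPA1L2 (2.38 and 2.51) also lay there. The copies resemble their parent genes, so their signals are uncertain. The median of the 21 genes was 0.23 and turned to -0.31 after centring on reference genes, and it kept its sign under the other scalings.

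The PRPF genes were all higher on the stretched array as deposited, 10 of 10, with 5 at least 1.5-fold higher and 0 lower. Of all named genes, 8045 of 14884 had a difference above 0, and 20.7% were at least 1.5-fold higher. Of named genes past the background bound, where all 10 lie, 4849 of 6502 had a difference above 0, and 36.8% were at least 1.5-fold higher. The U4/U6 snRNP proteins PRPF4 (5.32 to 6.59, 1.27) and PRPF31 (5.84 to 7.04, 1.20) were at least 2-fold higher, and their partner PRPF3 went from 4.71 to 5.34 (0.63). PRPF8, the U5 protein that holds the catalytic RNA core, went from 8.35 to 9.24 (0.89), and PRPF6, which bridges U5 and U4/U6, from 6.01 to 6.53 (0.52). These 5 proteins of the tri-snRNP had a median difference of 0.89, and their median kept its sign under each scaling, with 0.35 as its lowest value after centring on reference genes. PRPF19, the ubiquitin ligase that gives its name to the Prp19 complex needed for activation, went from 5.40 to 6.56 (1.16). PRPF38A, a factor of the pre-catalytic complex, read 6.70 and 7.17, and the U1-associated PRPF39 5.90 and 6.32. PRPF18, which acts in the second catalytic step, read 4.79 and 5.15, and PRPF40B, also U1-associated, 4.32 and 4.53. The differences of these 4 ran from 0.21 to 0.47. The median of the 10 genes, 0.575, was 0.035 after centring on reference genes.

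snRNP protein genes divided, with 5 of 11 (45.5%) at least 1.5-fold higher, 1 lower and none at 2-fold. Of all named genes, 20.7% were higher and 8.02% lower at 1.5-fold, and 9.07% were higher at 2-fold. Past the background bound, where 10 of the 11 lie, these shares were 36.8%, 4.89% and 16.8%. The Sm proteins, which form a ring around the small nuclear RNAs from a D3-B pair, a D1-D2 pair and an E-F-G trio, had near or unlike differences depending on the unit. SNRPD3 (7.93 to 8.92, 0.99) and SNRPB (7.14 to 8.07, 0.93) had differences near each other. In the other pair, SNRPD1 went up from 7.08 to 7.90 (0.82) while SNRPD2 went down from 8.30 to 7.50 (-0.80). The opposite signs of SNRPD1 and SNRPD2 held under all 4 other scalings. SNRPF read 4.01 and 4.77 (0.76), its static value within background, and SNRPG lay within background at 3.45 and 3.73. SNRPE had probe sets of opposite sign: the one with the higher signal read 4.43 and 4.07 (-0.36), and the other 2.52 and 2.77 (0.25). Many Sm genes have processed copies in the genome, so these signals are uncertain.

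Of the proteins specific to U1 and U2, SNRPA, which binds a stem-loop of U1 RNA, went from 7.58 to 8.40 (0.82). SNRPC, which helps U1 hold the 5′ splice site, read 5.10 and 5.01. The U2 proteins SNRPA1 (5.91 and 6.28) and SNRPB2 (8.94 and 8.89) stood at 0.37 and -0.05. Of these SNRP genes alone, SNRPA had the larger difference in U1 and SNRPA1 in U2 as deposited. The signs of SNRPC, SNRPB2 and SNRPA1 changed with the scaling. The median of the 11 SNRP genes was 0.37, and -0.17 after centring on reference genes.

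**Figure D3:**
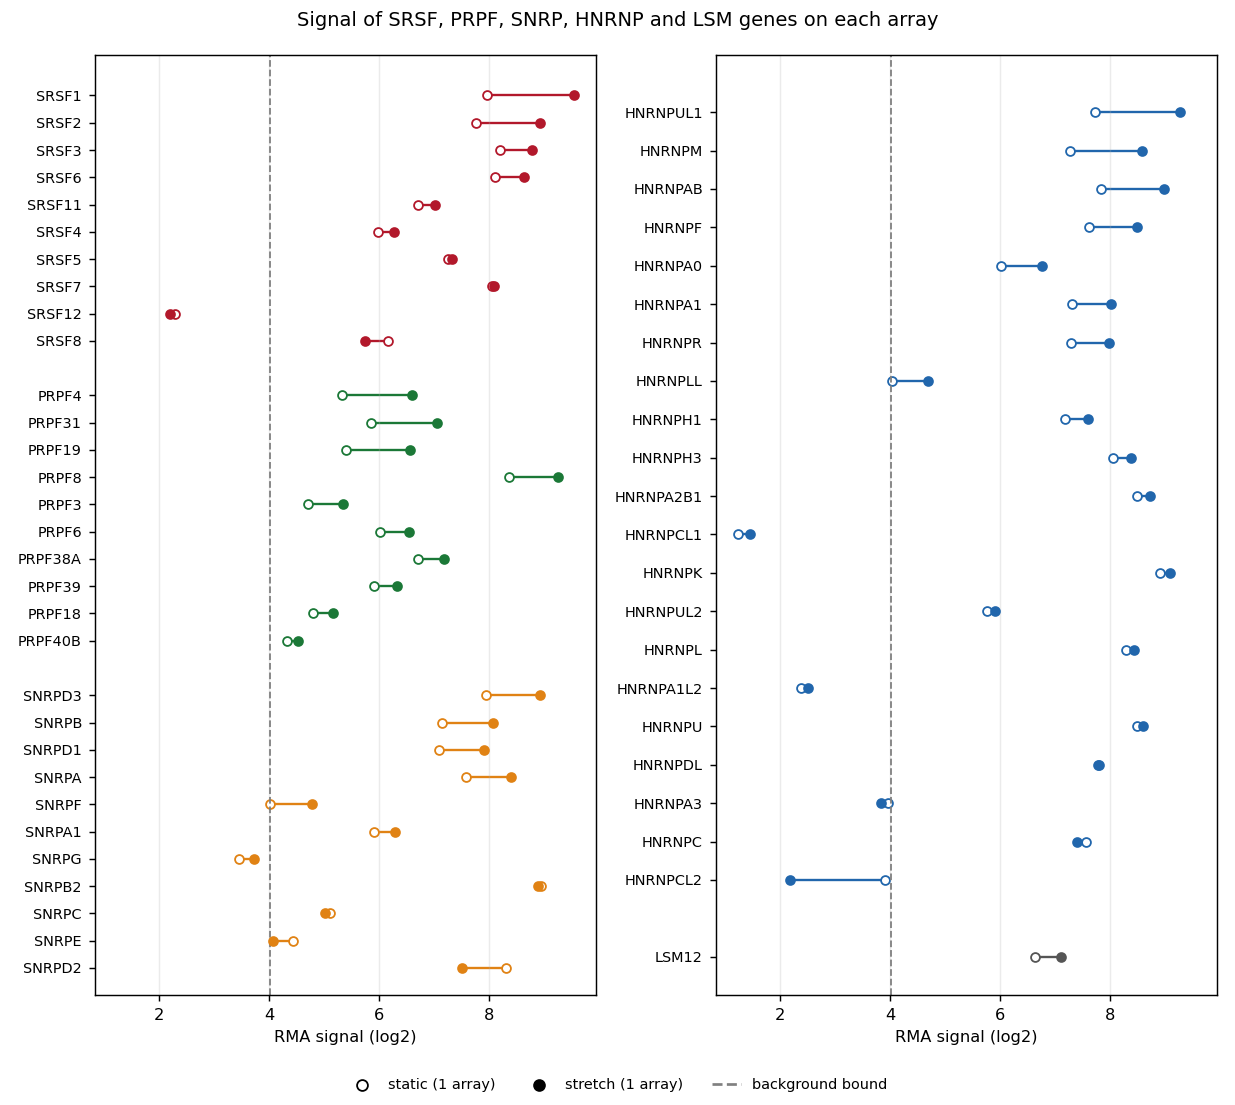
RMA signal (log2) of the SRSF, PRPF, SNRP, HNRNP and LSM genes on the static array (open circles) and the stretched array (filled circles), ordered by difference within each family, with the background bound of 4.01 as a dashed line. The filled circles lie to the right of the open ones for all 10 PRPF genes, while SNRPD2, from 8.30 to 7.50, runs the other way among bright genes.

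Of the 40 RBM genes, 14 (35%) were at least 1.5-fold higher, 1 was lower and 25 lay between. The share higher was 20.7% among all named genes and 36.8% among those past the background bound. Only 28 of the 40 lie past that bound, so the 35% and the 36.8% cover unlike sets. At 2-fold, 8 (20%) were higher, against 9.07% of all named genes and 16.8% of those past the bound. The largest differences were those of RBM19, a nucleolar protein of pre-ribosomal RNA processing, which went from 3.39 to 5.33 (1.94), and RBM12B, which went from 3.30 to 5.23 (1.93). Both had static values within background. A second, dimmer probe set of RBM12B read 1.94 and 1.79 (-0.15), and the mean of both gave 0.89. RBM28, another nucleolar protein of ribosome formation, went from 4.88 to 6.20 (1.32). RBM15, which recruits the adenosine methyltransferase complex to RNA, went from 3.73 to 5.13 (1.40), from a static value within background, and its paralog RBM15B from 4.21 to 5.01 (0.80). RBM12 went from 7.43 to 8.46 (1.03), and RBM14, a paraspeckle protein, from 6.25 to 7.17 (0.92).

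Of the RBM genes with a place in the spliceosome or in exon choice, those named in this paragraph ran from 1.25 (RBM23) to -0.27 (RBM8A). Others, RBM4 and RBM4B among them, follow below. RBM22, which lines the catalytic core, went from 5.59 to 6.74 (1.15). RBM10, an exon-skipping regulator that is often mutated in lung adenocarcinoma, went from 4.64 to 5.83 (1.19), and its relative RBM5 read 6.10 and 6.59 (0.49). RBM6, the neighbour and relative of RBM5, read 4.76 and 5.19 (0.43). RBM23 went from 5.51 to 6.76 (1.25), whereas its close paralog RBM39, a U2AF-related factor, read 7.33 and 7.46 (0.13). RBM42 went from 5.85 to 6.66 (0.81). RBM25, which works with U1, read 6.97 and 7.29 (0.32), RBM17, a U2AF-homology-motif protein, 5.69 and 5.87 (0.18), and RBM8A, the exon junction protein Y14, 6.06 and 5.79. RBM8A was past 1.5-fold lower after loess (-0.63) and centring on reference genes (-0.81), and also after quantile normalization. Of genes linked to the minor spliceosome, RBM48 read 3.29 and 4.05 (0.76), its static value within background, and RBM41 5.91 and 5.90.

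The remaining RBM genes had differences from 0.82 (RBM33) to -0.64 (RBM44). RBM33 went from 4.92 to 5.74 and RBM38, a p53 target that binds mRNA, from 4.55 to 5.22 (0.67). RBM26 (6.86 and 6.79) and RBM27 (7.62 and 7.44), partners in nuclear RNA decay, had differences of -0.07 and -0.18. RBM7, of the nuclear exosome targeting complex, read 3.88 and 4.37 (0.49), and RBM34 7.40 and 7.29 (-0.11). RBM genes known from other tissues lay at or near background: RBM20 of heart muscle read 2.12 and 2.30, the germ cell gene RBM46 1.95 and 1.83, RBM11 1.71 and 1.32, and the muscle gene RBM24 3.96 and 4.19. RBM44, another germ cell gene, was the 1 lower RBM gene, with 2.62 and 1.98, within background on both arrays, and was under 1.5-fold after centring on medians (-0.54), quantile normalization (-0.52) and loess (-0.49). The paralogs RBM4 and RBM4B, which act in alternative splicing, read 1.87 and 1.70, and 4.47 and 4.96. RBM47, a cofactor of RNA editing, read 3.67 and 4.13. RBM18 (0.52), RBM43 (0.23) and RBM45 (0.18) also lay between the 1.5-fold limits. The 4 antisense RNAs lay within background too, with differences from -0.29 to 0.34. The median of the 40 genes was 0.385, or 0.475 without the antisense RNAs, and it turned to -0.155 after centring on reference genes. LSM12, the 1 LSM gene measured, which lacks a place in the U6 ring, read 6.63 and 7.10 (0.47).

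**Figure D4:**
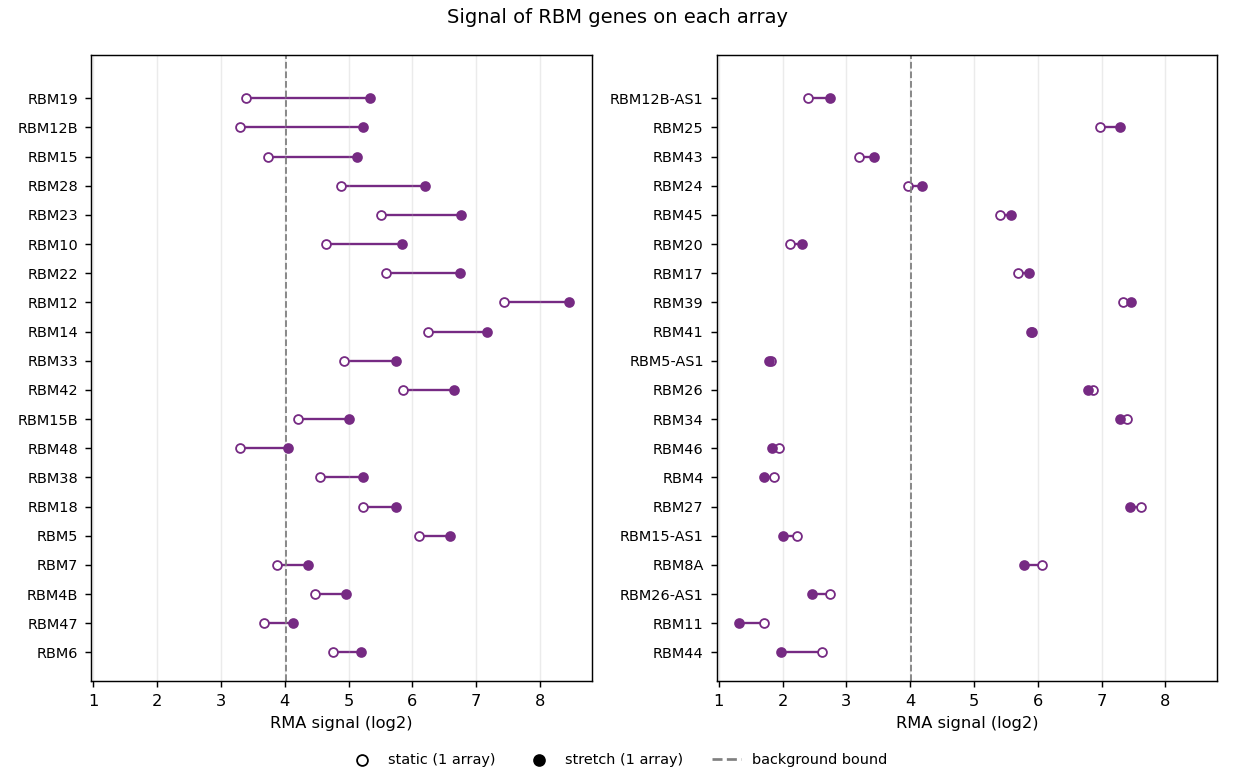
RMA signal (log2) of the 40 RBM genes on the static array (open circles) and the stretched array (filled circles), ordered by difference from upper left to lower right, with the background bound of 4.01 as a dashed line. RBM19, RBM12B and RBM15 cross the bound between the arrays, as do RBM48, RBM7, RBM47 and RBM24 with smaller differences. Most genes of the right panel with signals under 3 are antisense RNAs or genes known from other tissues.

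Genes that work beside these families were taken from lists by role, and as deposited, each list but the last named here held genes past 1.5-fold upward and none downward. Their counts are to be read against the shares at least 1.5-fold higher, 20.7% of all named genes and 36.8% of those past the background bound. The measured Prp19 list (28.6%) and the other snRNP proteins (35.7%) are under the latter. The U12 list had 37.5%, but only 4 of its 8 measured genes lie past that bound. After loess, ZCRB1 (-0.83) of the U12 list and BCAS2 (-0.76) and WBP4 (-0.61) of the Prp19 list were past 1.5-fold lower. Of 25 genes for U2AF, SR protein kinases and Tra2 proteins, 11 passed 1.5-fold upward and 0 downward, and the median was 0.37. U2AF2, the subunit that reads the polypyrimidine tract, went from 7.33 to 9.06 (1.73), while U2AF1, which reads the 3′ splice site, went from 5.57 to 6.18 (0.61). The kinase gene UHMK1 went from 4.32 to 6.21 (1.89), and SRRT, a protein of cap-bound RNA, from 4.38 to 5.64 (1.26). Of the kinases that phosphorylate SR proteins, CLK2 went from 4.65 to 5.87 (1.22), CLK4 from 4.69 to 5.45 (0.76) and SRPK2 from 5.34 to 5.94 (0.60). SRPK1 read 6.13 and 6.63 (0.50), while CLK1 (6.36 and 6.50) and CLK3 (5.87 and 5.97) were nearly level. SRPK3 lay within background on both arrays, at 3.47 and 3.39. TRA2B, an SR-like exon activator, read 7.90 and 7.99. U2AF1, the CLK and SRPK genes and TRA2B were chosen after their values were seen.

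Of the hnRNP-like regulators 27 were listed and 16 measured; 9 of these passed 1.5-fold upward and 0 downward, and the median was 0.68. CIRBP, the cold-inducible RNA-binding protein, went from 5.02 to 6.65 (1.63), FUBP1 from 6.53 to 7.75 (1.22) and PTBP1, the polypyrimidine tract-binding repressor of exons, from 9.52 to 10.63 (1.11). Its paralogs PTBP3 (0.46) and PTBP2 (0.34), chosen after their values were seen, were under 1.5-fold. Of other snRNP proteins 17 were listed and 14 measured, 5 passed upward and 0 downward, and the median was 0.42. They include partners of PRPF8 in U5: EFTUD2, its GTPase, went from 8.11 to 9.01 (0.90) and SNRNP200, the helicase that unwinds U4 from U6, from 7.08 to 7.96 (0.88). The helicase gene DDX23 went from 4.69 to 5.67 (0.98). The other 9 measured genes of this list lay between the 1.5-fold limits. Among them were SNRNP40 (0.23), PPIH (0.10), TXNL4A (0.04) and SNU13 (-0.14), chosen after their values were seen.

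Factors of the Prp19 complex and the catalytic steps had 33 genes listed and 28 measured, with 8 past 1.5-fold upward, 0 downward and a median of 0.325. DHX38, the helicase known as Prp16, went from 4.38 to 5.75 (1.37), WBP11 from 5.66 to 6.83 (1.17) and BUD13 from 3.59, within background, to 4.73 (1.14). Of 8 genes of the U12-type spliceosome (12 listed), 3 were higher and 0 lower: CENATAC (1.24), TXNL4B (1.19) and ARMC7 (1.08, static value within background), while ZCRB1 stood just short at -0.58. Of 7 exon junction and decay genes (17 listed), 5 were higher and 0 lower, among them the helicase UPF1 (4.99 to 6.06, 1.07), CASC3 (6.95 to 7.97, 1.02) and the export adaptor ALYREF (3.54 to 4.53, 0.99), the last from within background. The list's median was 0.76. MAGOHB, also among the 5 higher, lay within background on both arrays, at 2.29 and 3.05. ZCRB1 and MAGOHB were chosen after their values were seen.

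The SMN complex, which loads Sm rings onto small nuclear RNAs, had 16 genes listed and 13 measured, with 6 past 1.5-fold upward, 0 downward and a median of 0.57. GEMIN4 went from 4.20 to 6.58 (2.38), GEMIN5, which recognises the RNAs, from 6.37 to 7.42 (1.05), and COIL, the scaffold of Cajal bodies, from 4.02 to 5.05 (1.03), its static value next to the background bound. GEMIN8, chosen after its value was seen, is also among the 6 but lay within background on both arrays, at 2.91 and 3.82. The last list, of splicing regulators restricted to certain cell types, had a median below 0: of 9 measured (24 listed), 0 were higher and 1 was lower, with a median of -0.07 (0.03 after centring on medians), and 7 lay within background on both arrays. These included the epithelial regulators ESRP1 (1.71 and 1.64) and ESRP2 (3.16 and 3.18), chosen after their values were seen. MBNL3 read 2.37 and 1.36 (-1.01), within background. MBNL1 (9.58 and 9.42) and MBNL2 (7.24 and 7.55), which are known to steer developmental exon choice, were above background and under 1.5-fold. Centring on reference genes brought the medians of the U2AF and SR kinase list, the other snRNP proteins, the Prp19 list and the U12 list below 0. Those of the hnRNP-like regulators (0.14), exon junction genes (0.22) and SMN complex (0.03) stayed above it. The median of the Prp19 list was also at or below 0 after quantile normalization (-0.02) and loess.

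**Figure D5:**
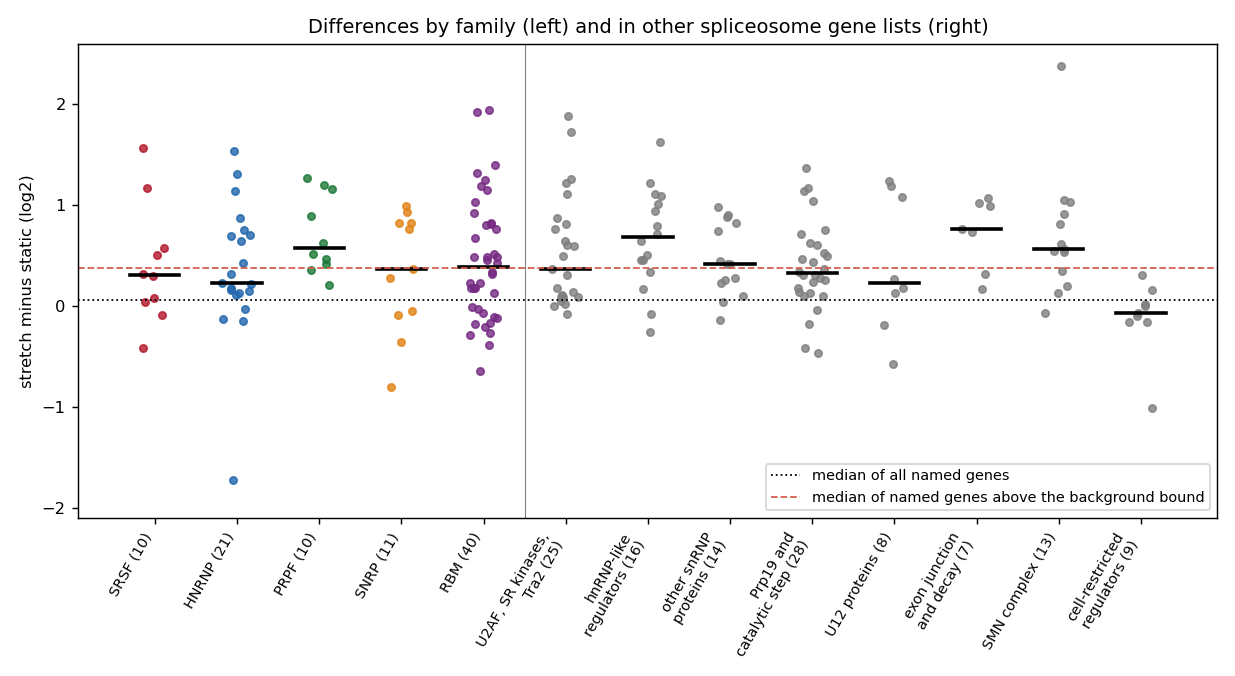
Difference between the arrays (stretch minus static, log2) of each gene in 5 splicing factor families (coloured, left of the vertical line) and in 8 lists of other splicing genes (grey), with the number of genes in brackets and thick bars for the medians. The dotted line is the median of all named genes (0.06) and the dashed line that of named genes above the background bound (0.38); the cell-restricted regulators have their median at -0.07.

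Promoter sequence was set beside the differences for the members with the largest upward difference in each of 5 families among those with 1 start site in the RefSeq table. The 250 bases before the start are printed 5′ to 3′ from GRCh38.p14, as chr17:58007247-58007496 on the minus strand for SRSF1, chr19:8444725-8444974 on the plus strand for HNRNPM, chr9:113275408-113275657 on the plus strand for PRPF4, chr20:2470790-2471039 on the minus strand for SNRPB and chr12:113966326-113966575 on the minus strand for RBM19. Capitals mark matches, on either strand, to any of 5 motifs: the E-box CACGTG, the ETS motif CCGGAAG, the AP-1 motif TGANTCA, the TEAD motif CATTCC and the CCAAT box CCAAT. No matches overlapped in these windows.
SRSF1: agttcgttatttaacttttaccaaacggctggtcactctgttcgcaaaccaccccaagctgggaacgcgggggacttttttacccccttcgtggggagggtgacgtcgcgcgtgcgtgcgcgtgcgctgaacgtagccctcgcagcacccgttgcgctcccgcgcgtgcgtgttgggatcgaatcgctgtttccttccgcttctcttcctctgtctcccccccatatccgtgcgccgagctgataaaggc
HNRNPM: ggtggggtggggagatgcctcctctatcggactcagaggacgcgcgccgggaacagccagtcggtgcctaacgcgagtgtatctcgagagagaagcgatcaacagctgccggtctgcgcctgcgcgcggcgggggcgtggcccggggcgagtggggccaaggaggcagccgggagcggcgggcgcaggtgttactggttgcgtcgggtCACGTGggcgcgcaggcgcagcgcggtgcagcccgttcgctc
PRPF4: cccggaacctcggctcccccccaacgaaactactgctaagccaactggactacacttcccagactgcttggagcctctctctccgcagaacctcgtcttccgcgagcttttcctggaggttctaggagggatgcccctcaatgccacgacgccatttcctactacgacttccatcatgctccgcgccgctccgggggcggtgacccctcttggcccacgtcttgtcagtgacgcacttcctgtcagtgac
SNRPB: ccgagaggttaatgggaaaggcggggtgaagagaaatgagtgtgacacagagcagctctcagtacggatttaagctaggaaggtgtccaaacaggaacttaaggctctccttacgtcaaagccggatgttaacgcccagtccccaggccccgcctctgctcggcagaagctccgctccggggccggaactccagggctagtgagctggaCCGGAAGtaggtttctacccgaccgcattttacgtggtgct
RBM19: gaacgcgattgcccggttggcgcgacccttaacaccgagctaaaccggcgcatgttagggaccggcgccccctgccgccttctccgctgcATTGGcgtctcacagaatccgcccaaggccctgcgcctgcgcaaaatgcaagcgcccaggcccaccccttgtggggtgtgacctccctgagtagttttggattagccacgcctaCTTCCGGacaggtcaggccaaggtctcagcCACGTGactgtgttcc

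The HNRNPM window held an E-box from 42 to 37 bases before the start, and the RBM19 window one from 16 to 11. RBM19 also held an ETS match from 46 to 40 bases before the start and a reversed CCAAT box from 160 to 156, and SNRPB an ETS match from 41 to 35. The windows of SRSF1 and PRPF4 held none of the 5 letter strings. Over all members, 83 had a start site in the table, with 108 windows. The ETS letters occurred in 23 of these windows (21.3%), against 8.52% of all 35116 windows in the table, and the CCAAT letters in 50 (46.3%), against 32%. The E-box occurred in 9 (8.33% against 6.34%), the AP-1 letters in 5 (4.63% against 6.57%) and the TEAD letters in 11 (10.2% against 11.9%). Among members at least 1.5-fold higher, the CCAAT letters were in 20 of 32 windows (62.5%), and among the other members in 30 of 76 (39.5%), while the ETS letters were in 7 of 32 (21.9%) and 16 of 76 (21.1%). Windows of 1 gene can overlap, the table also holds noncoding genes, and no test was made. A match describes letters and not a bound site.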

How the data were processed

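Each of the 2 arrays has deposited log2 values for 53617 probe sets. The authors used RMA, per the submitters' processing notes; that the scale is log2 was inferred from the range of values. Software and chip definition are not given in the sources used here. Sorted values of the arrays differ by up to 0.45, so their normalization to each other is unknown. The platform annotation gave 1 symbol to 16098 probe sets and several to 0, and 37519 are unnamed here. The symbols of all 93 members matched the RefSeq gene table (GRCh38.p14) by gene identifier.

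Each gene was represented by its probe set of highest mean signal, which mattered for 3 members with 2 probe sets. The pseudogene clause of the selection, written for HNRNP, was applied to every family, which removed 1 SNRP copy. Counts cover all members, with no level filter. No p-value is given, since each condition has 1 array, and the number of arrays limits the precision. Loess used a span of 0.3 on all probe sets. The steps were tested on simulated data. Members, lists and thresholds were chosen with earlier results of these data known. Genes outside the families were named as the up to 3 members of each list with the largest differences, unless said otherwise. Members of each family were named by their highest and lowest differences, their signal, a 2-fold difference or disagreeing probe sets, and most others were added. Alternatives were 4 scalings, averaged probe sets, 2 level filters, a 2-fold threshold and means. Calculations used Python 3.11.15, numpy 2.4.6, pandas 2.3.3, statsmodels 0.14.6 and matplotlib 3.10.9.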

Additional observations from a re-analysis of the deposited data

How the results depend on the processing

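Among the 93 genes, 34 were at least 1.5-fold higher, 3 lower, and the median difference was 0.42. Quantile normalization gave 21 higher, 5 lower and a median of 0.125, and loess on level 20 higher and a median of 0.17. Centring on reference genes gave 15 higher, 19 lower and a reversed median of -0.12. The medians of all named genes under these scalings were 0.0, 0.04 and -0.48, in that order. Under quantile normalization and either centring, the shares of all named genes past 1.5-fold were not counted. The counts of these 93 genes there, the 19 lower included, thus have no share to be read against. At 2-fold, 16 were higher and 1 lower. With a mean signal past the background bound, 1 was lower, of 75 genes. These changes follow from the scaling, the threshold or fewer genes. The other values of these 3 results, under centring on medians (41 higher, 2 lower, median 0.52), averaged probe sets, the filter at the median of all values, means in place of medians and removal of antisense RNAs, stayed within 1.5 times the count or 0.10 of the median. Of 109 family, list and gene values, 103 moved by more than 0.10 under quantile normalization, 102 under loess and 109 under centring on reference genes. Under centring on medians 0 moved that far, and with averaged probe sets 2. None past 1.5-fold changed sign, but both centrings shift values by too little to cause such a change. No paired analysis was possible because each condition has 1 array. Nothing here measures the spread between cultures, and signals within background limit 16 members on both arrays.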

Other observations

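The pseudogene symbols left out of the families had signals of their own. HNRNPA1P10, a processed copy of HNRNPA1, had 2 probe sets, which read 10.36 and 10.72 (a difference of 0.36) and 6.30 and 6.74 (0.44), beside 0.70 for HNRNPA1. HNRNPA1P33 read 4.89 and 7.83 (2.94). HNRNPA3P1 (1.07 and 1.46) and HNRNPKP3 (1.83 and 2.05) lay within background on both arrays. SNRPD2P2, a copy of SNRPD2, read 2.95 and 1.63 (-1.32), also within background and with the sign of SNRPD2. Whether probes of these copies also bind RNA of the parent genes was not tested.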
